A study of Mus musculus with 16 samples.

Results

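The genes described here are 10 genes that mark activated, matrix-producing fibroblasts: Cthrc1, Postn, Fap, Acta2, Tagln, Tnc, Lox, Fn1, Sparc and Thbs2. They were taken by symbol from the array annotation, which lists 14 probes for them among 55681, and all 10 were among the 21985 genes and transcripts tested. The list names no cell that was isolated. RNA came from whole mouse melanoma biopsies, 16 in all, so these values sum over every cell of a biopsy. The groups of 4 tumours each were untreated tumours, tumours after 4 days of a BRAF inhibitor, tumours after 60 days of it, and resistant tumours at 120 days. The inhibitor's name and the strain, genotype and age of the animals are not given in the sources used here. Tumour RNA was labelled with Cy5 and hybridised against a universal mouse reference RNA in Cy3, without a dye swap. Sample titles carry codes whose meaning is not given: the 4-day tumours have a code of their own (STS), the 60-day tumours RG6 or RG7, the resistant tumours RG4 or RG5, and the untreated tumours RG10 or RG9. No code is shared between groups, so code and treatment cannot be told apart in any comparison. Whether tumours with a shared code came from 1 animal is not stated, so p-values measure the spread between these samples only.

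Fibroblasts in a wound or a tumour can turn into contractile cells that lay down and crosslink collagen-rich matrix. Transforming growth factor beta and mechanical tension are the usual inducers, and the genes listed here are commonly used to recognise that state. The products are secreted regulators of the matrix (Cthrc1, Postn, Tnc, Thbs2, Sparc), a structural fibril (Fn1), a crosslinking enzyme (Lox), a surface protease (Fap) and parts of the contractile apparatus (Acta2, Tagln). Acta2 and Tagln are also made by smooth muscle and pericytes, and Fn1, Sparc and Tnc also by endothelial or melanoma cells.

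Values are log2 ratios of tumour over reference signal, so a gene's ratio depends on its level in the reference and ratios of different genes cannot be ranked. All 14 probes were above background in Cy5 on 16 of 16 arrays and none was saturated. Acta2 was printed as 10 spots, whose SD within an array had a median of 0.0536, against a pooled SD of 0.32 between tumours of a group. The arrays lay on 2 slides with 2 arrays of each group, replicates 3 and 4 on slide 1 and replicates 1 and 2 on slide 2. In the 60-day and resistant groups the title code followed the slide, so code and slide cannot be told apart there, and the position on a slide followed the group throughout. Resistant replicate 1 stood apart, with a median correlation of 0.697 with the other arrays across genes, where the other 15 arrays had 0.836 to 0.916.

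All 10 genes had lower means in 4-day and in 60-day tumours than in untreated tumours, and 1 of them, Cthrc1, passed the test in both comparisons. At 4 days the median difference over the 10 genes was -0.77, against -0.008 over all genes tested. Cthrc1 was the 1 gene called, where 1.34% of all genes were called and 0.928% were called lower (limma, adjusted p under 0.05). The difference was negative for 10 of 10, where 51.3% of all genes had a negative difference. The 10 genes were chosen with earlier results of these data known, so such counts are a description. At an unadjusted p under 0.05 there were 5 of the 10, against 16.7% of all genes. The groups did not overlap for Cthrc1 and Thbs2, 2 of 10, where 4.19% of all genes lay lower without overlap.

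At 60 days the median difference was -0.95, against 0.001 over all genes. Cthrc1 was again the 1 gene called, with 0.819% of all genes called and 0.469% called lower. All 10 differences were negative, where 49.8% of all genes were negative, and 6 of the 10 had an unadjusted p under 0.05, against 18.7% of all genes. For Cthrc1, Postn, Tnc, Fn1 and Thbs2, 5 of 10, every 60-day tumour lay below every untreated tumour, which held for 6.4% of all genes. The comparisons with untreated tumours use the same 4 untreated arrays, so their signs are not independent of each other.

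In resistant tumours none of the 10 was called against untreated tumours, where 0.0182% of all genes were called. The median difference was -0.47, against 0.012 over all genes, and 8 of 10 differences were negative, against 47.8%. At an unadjusted p under 0.05 there were 4 of the 10 (Cthrc1, Postn, Tagln and Fn1), against 9.52% of all genes. For 0 of 10 did the groups lie apart with resistant tumours lower, which held for 2.74% of all genes. Because these are bulk samples, fewer cells of a type and less RNA per cell cannot be told apart in any of these differences.

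**Figure D1:**
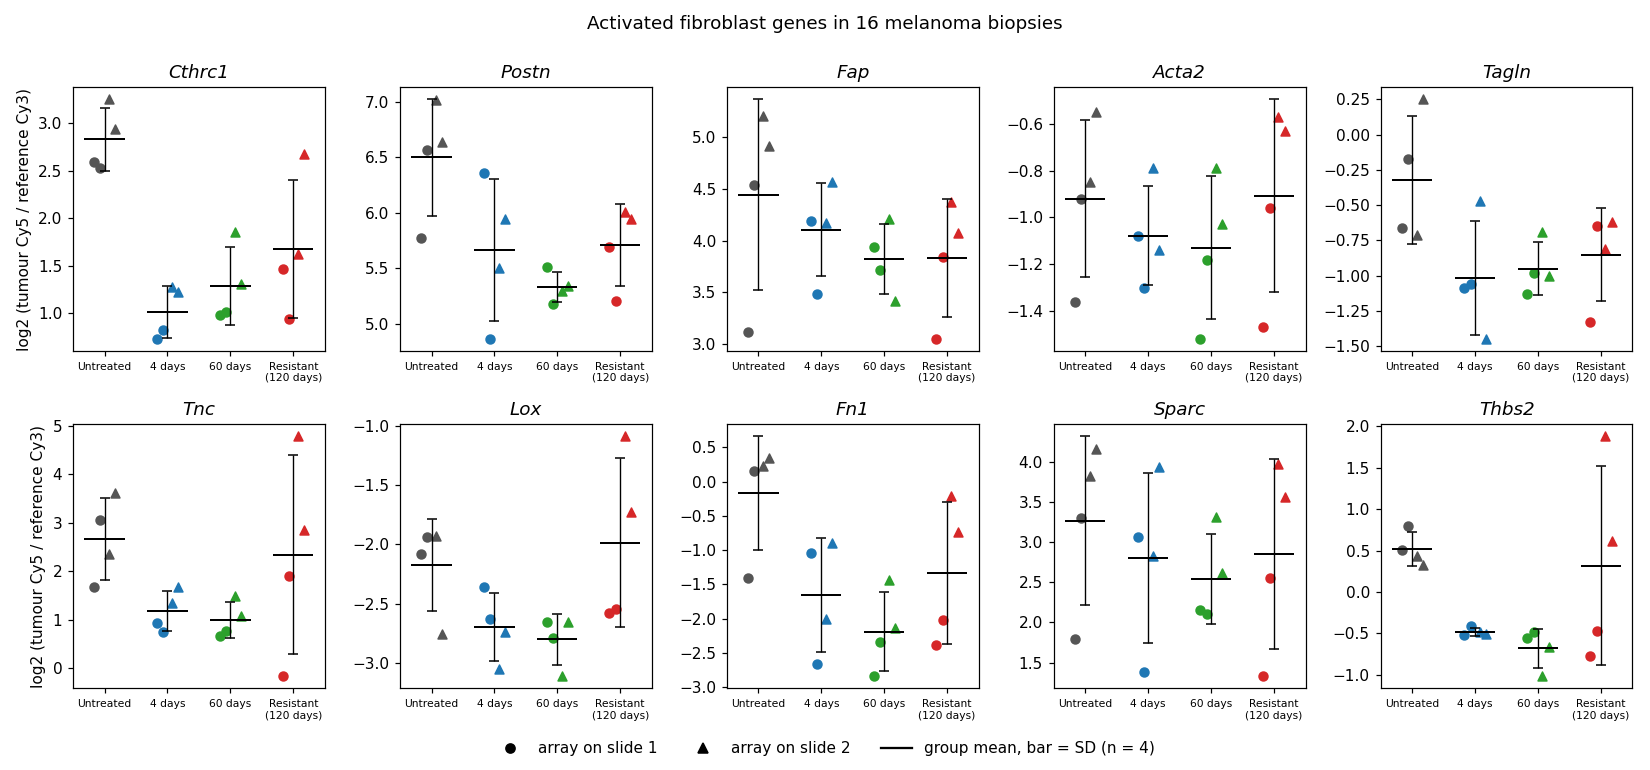
Log2 ratio of tumour (Cy5) over reference (Cy3) of each gene in 16 tumours, with circles for arrays on slide 1, triangles for slide 2, lines for group means and bars for SD (n = 4). For Cthrc1 the untreated tumours sit between 2.53 and 3.25, above all 4-day and 60-day tumours, and resistant tumours spread widely for Tnc and Thbs2.

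Cthrc1 encodes a secreted protein with collagen-like repeats that was found in injured arteries and is made by activated fibroblasts. Its log2 ratio was 3.25, 2.94, 2.59 and 2.53 in untreated tumours, 1.28, 1.22, 0.73 and 0.83 after 4 days, 1.86, 1.31, 0.98 and 1.01 after 60 days, and 1.62, 2.67, 1.47 and 0.94 in resistant tumours. All 8 tumours of the 4-day and 60-day groups lay below the lowest untreated tumour, and 1 resistant tumour, replicate 2, lay within the untreated range. Cthrc1 fell 3.51-fold at 4 days (-1.81 ± 0.31, adjusted p = 0.015) and 2.9-fold at 60 days (-1.54 ± 0.31, adjusted p = 0.0374). In resistant tumours the difference was -1.15 ± 0.31, which did not pass (adjusted p = 0.179). On slide 1 alone the differences were -1.78 at 4 days, -1.57 at 60 days and -1.36 in resistant tumours, and on slide 2 they were -1.84, -1.51 and -0.95. The 4-day call was lost without 4-day replicate 4 (adjusted p = 0.062), untreated replicate 1 (0.0569) or untreated replicate 2 (0.0601), while the difference stayed between -1.91 and -1.67 whichever array was left out. The 60-day call was lost without 4-day replicate 1 (0.0501), any 60-day replicate (0.0575, 0.107, 0.11 and 0.0961 without replicates 1 to 4), or untreated replicate 1 (0.116), 2 (0.12) or 4 (0.0996), with differences from -1.73 to -1.40. The order of the group means was untreated, resistant, 60 days and 4 days. The step between 60 and 4 days (0.28 ± 0.31) and that between resistant and 60-day tumours (0.38 ± 0.31) were within or close to 1 SE.

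Postn encodes periostin, a matrix protein that binds collagen and integrins. It measured 7.02, 6.64, 5.77 and 6.57 in untreated tumours, 5.50, 5.94, 6.36 and 4.86 after 4 days, 5.29, 5.34, 5.51 and 5.18 after 60 days, and 6.01, 5.94, 5.69 and 5.20 in resistant tumours. The 60-day tumours lay close together (SD 0.14, n = 4) and below every untreated tumour. The 4-day and resistant groups overlapped the untreated range, which reached down to 5.77 in untreated replicate 3. The other untreated tumours lay above all 4-day and resistant tumours. The difference was -0.84 ± 0.30 at 4 days (adjusted p = 0.19), -1.17 ± 0.30 at 60 days (adjusted p = 0.0755) and -0.79 ± 0.30 in resistant tumours (adjusted p = 0.398). The 60-day difference passed with the slide as a block (adjusted p = 0.047), without untreated replicate 3 (0.0216) and without resistant replicate 1 (0.042). A model of only the 60-day and untreated groups also passed it (0.0325). In 22 of 26 alternatives it did not pass, with adjusted p up to 0.515.

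Tnc encodes tenascin-C, a large glycoprotein laid down in wounds and at tumour margins. Its log2 ratio was 2.35, 3.61, 1.67 and 3.06 in untreated tumours, 1.34, 1.68, 0.94 and 0.75 after 4 days, 1.5, 1.08, 0.67 and 0.77 after 60 days, and 4.78, 2.86, -0.16 and 1.91 in resistant tumours. The 60-day tumours lay below all untreated tumours, and at 4 days replicate 2 reached just above the lowest untreated value. Resistant tumours held both the highest and the lowest of the 16 values, in replicates 1 and 3. The difference was -1.49 ± 0.74 at 4 days (adjusted p = 0.327) and -1.67 ± 0.74 at 60 days (adjusted p = 0.243), and it was -0.32 ± 0.74 in resistant tumours (adjusted p = 0.941). Without resistant replicate 1 the last of these was -1.13, and without resistant replicate 3 it was 0.51.

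Tnc is read by a pair of probes in different stretches of the gene, and the 1 Thbs2 probe, like the brighter Tnc probe, maps across an intron. Their sequences are shown because Tnc and Thbs2 had the largest SD among resistant tumours and these probes define which transcript was read. That SD was 2.05 for Tnc and 1.20 for Thbs2, with Sparc close behind at 1.18. Positions on build mm9 (minus strand) come from the array annotation. The brighter Tnc probe covers chr4:63674248-63675011, a span of 764 bases for a 60-base probe, the other Tnc probe chr4:63643728-63643787, and the Thbs2 probe chr17:14804526-14805789, a span of 1264 bases. Each is open in at least 1 reading frame over its whole length. All letters are lower case because no part is singled out.
Tnc, brighter probe: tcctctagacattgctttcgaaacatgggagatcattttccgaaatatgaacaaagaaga
Tnc, other probe: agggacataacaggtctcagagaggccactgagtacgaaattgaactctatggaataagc
Thbs2 probe: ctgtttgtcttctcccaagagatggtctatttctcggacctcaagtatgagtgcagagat
The other Tnc probe gave -1.20 ± 0.46 at 4 days, -1.42 ± 0.46 at 60 days and -0.16 ± 0.46 in resistant tumours, each negative like those of the brighter probe.

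Thbs2 encodes thrombospondin-2, a matrix protein that restrains blood vessel growth and takes part in collagen fibril assembly. It measured 0.43, 0.33, 0.51 and 0.80 in untreated tumours, -0.49, -0.51, -0.52 and -0.41 after 4 days, -1.02, -0.67, -0.56 and -0.48 after 60 days, and 1.88, 0.62, -0.77 and -0.47 in resistant tumours. Every 4-day and 60-day tumour lay below every untreated tumour, and the 4-day tumours lay within 0.11 of each other. Resistant replicate 1 lay above all untreated tumours, replicate 2 among them, and replicates 3 and 4 below them. The difference was -1.0 ± 0.41 at 4 days (adjusted p = 0.238), -1.20 ± 0.41 at 60 days (adjusted p = 0.144) and -0.20 ± 0.41 in resistant tumours (adjusted p = 0.93). The standard error comes from a spread shared by the 4 groups, in which the resistant group had an SD of 1.20 (n = 4) and the 4-day group 0.05. In a model of only the 4-day and untreated groups Thbs2 passed (adjusted p = 0.0394), as it did in a model of only the 60-day and untreated groups (0.0126) and without resistant replicate 1 in both comparisons (0.0384 at 4 days and 0.0152 at 60 days). In 24 of 26 alternatives it did not pass, at either time. Adjusted p there reached 0.853 at 4 days and 0.555 at 60 days.

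Sparc encodes osteonectin, a collagen-binding glycoprotein that many matrix-producing cells secrete. Its values were 3.82, 4.16, 1.79 and 3.30 in untreated tumours, 2.82, 3.93, 3.06 and 1.38 after 4 days, 3.31, 2.61, 2.15 and 2.10 after 60 days, and 3.97, 3.56, 1.33 and 2.55 in resistant tumours. All 4 groups overlapped. The difference was -0.47 ± 0.64 at 4 days, -0.72 ± 0.64 at 60 days and -0.41 ± 0.64 in resistant tumours, with adjusted p of 0.815, 0.598 and 0.902. A dimmer probe gave -0.54 ± 0.37, -0.71 ± 0.37 and -0.53 ± 0.37, while the dimmest of the 3 Sparc probes gave 0.06 ± 0.16, 0.06 ± 0.16 and -0.09 ± 0.16. The sign thus differed between probes at 4 and 60 days, but each difference of the dimmest probe was smaller than its SE. Without 4-day replicate 4 the 4-day difference of the brightest probe was 0.00.

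Fn1 encodes fibronectin, the fibril on which much of the provisional matrix of wounds is assembled. It measured 0.23, 0.35, -1.41 and 0.15 in untreated tumours, -2.01, -0.90, -1.04 and -2.66 after 4 days, -1.44, -2.14, -2.84 and -2.34 after 60 days, and -0.21, -0.73, -2.39 and -2.02 in resistant tumours. Untreated replicate 3 lay far below the other 3 untreated tumours and within the 4-day range, while the 60-day tumours all lay below it. The difference was -1.48 ± 0.54 at 4 days (adjusted p = 0.195), -2.02 ± 0.54 at 60 days (adjusted p = 0.0843) and -1.17 ± 0.54 in resistant tumours (adjusted p = 0.523). The mean at 60 days was 4.06-fold lower, the largest fold of the 10 genes at that time, without passing the test. It passed with the slide as a block (adjusted p = 0.0283), without untreated replicate 3 (0.027, difference -2.43) and without resistant replicate 1 (0.0357). A model of only the 60-day and untreated groups also passed it (0.0349). In 22 of 26 alternatives it did not pass, with adjusted p up to 0.228.

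Lox encodes lysyl oxidase, the copper enzyme that crosslinks collagen and elastin. It measured -1.93, -2.75, -2.08 and -1.94 in untreated tumours, -3.05, -2.74, -2.36 and -2.63 after 4 days, -3.11, -2.65, -2.65 and -2.79 after 60 days, and -1.09, -1.73, -2.58 and -2.54 in resistant tumours. Untreated replicate 2 lay among the treated tumours, and resistant replicates 1 and 2 lay above all untreated tumours. The difference from untreated tumours was -0.52 ± 0.29 at 4 days, -0.63 ± 0.29 at 60 days and 0.19 ± 0.29 in resistant tumours (adjusted p of 0.406, 0.269 and 0.901). Another probe gave -0.72 ± 0.34, -0.68 ± 0.34 and -0.09 ± 0.34. The sign in resistant tumours differed between the probes, but both differences there were smaller than their SE.

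Fap encodes fibroblast activation protein, a serine protease of the cell surface. It measured 5.20, 4.91, 3.12 and 4.54 in untreated tumours, 4.17, 4.57, 4.19 and 3.49 after 4 days, 4.21, 3.42, 3.94 and 3.72 after 60 days, and 4.37, 4.07, 3.05 and 3.84 in resistant tumours. Untreated replicate 3 was below all 4-day and 60-day tumours, so the groups overlapped throughout. The difference was -0.34 ± 0.40, -0.62 ± 0.40 and -0.61 ± 0.40 at 4 days, at 60 days and in resistant tumours, with adjusted p of 0.774, 0.438 and 0.679. On slide 1, which holds that tumour, the 4-day difference was 0.01 and the 60-day difference 0, and on slide 2 they were -0.69 and -1.24. Without untreated replicate 3 they were -0.78 at 4 days, -1.06 at 60 days and -1.05 in resistant tumours, and adjusted p was 0.171, 0.0628 and 0.133.

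Acta2, smooth muscle alpha-actin, differed least of the 10 genes. It measured -0.85, -0.55, -1.36 and -0.92 in untreated tumours, -0.79, -1.14, -1.08 and -1.30 after 4 days, -0.79, -1.03, -1.52 and -1.18 after 60 days, and -0.57, -0.63, -1.47 and -0.96 in resistant tumours. The 4 groups covered nearly the same range, and the difference from untreated tumours was -0.16 ± 0.22 at 4 days, -0.21 ± 0.22 at 60 days and 0.01 ± 0.22 in resistant tumours. Tagln, transgelin, an actin-binding protein of contractile cells, measured -0.71, 0.25, -0.66 and -0.17 in untreated tumours, -0.47, -1.45, -1.09 and -1.06 after 4 days, -0.69, -1.0, -1.13 and -0.98 after 60 days, and -0.81, -0.62, -1.33 and -0.65 in resistant tumours. In each treated or resistant group at least 1 tumour lay within the untreated range. Tagln had -0.70 ± 0.24 at 4 days (adjusted p = 0.169), -0.63 ± 0.24 at 60 days (0.186) and -0.53 ± 0.24 in resistant tumours (0.504). For Acta2 adjusted p was 0.821, 0.674 and 0.994.

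**Figure D2:**
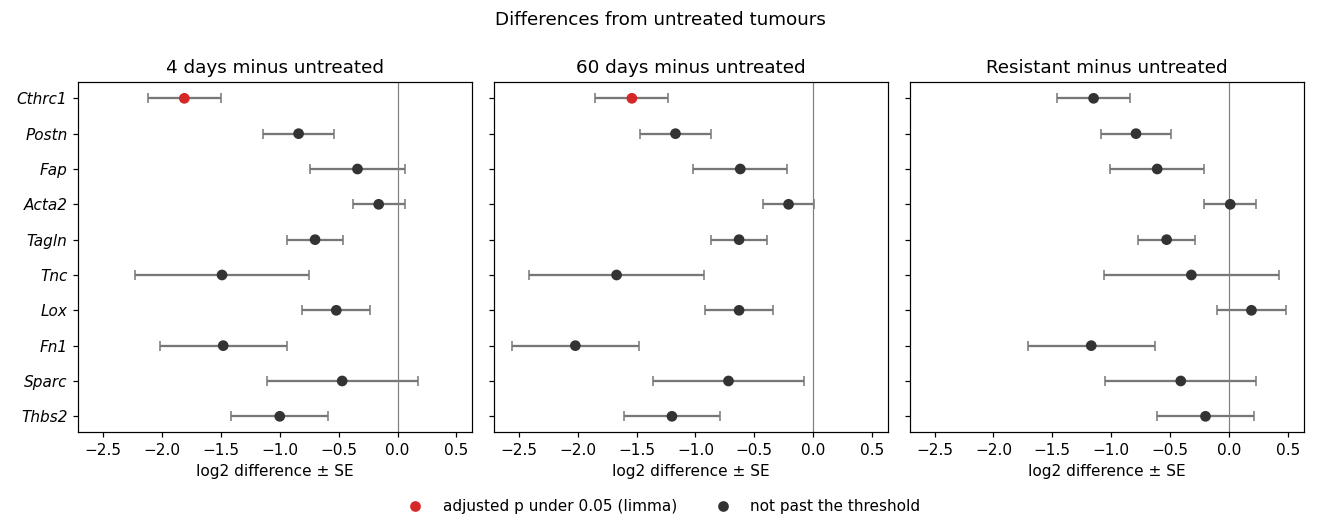
Log2 difference from untreated tumours ± SE (4 tumours against 4) of each gene at 4 days, at 60 days and in resistant tumours, with red points for adjusted p under 0.05. Cthrc1 passed at 4 days (-1.81) and at 60 days (-1.54), and no gene passed in resistant tumours.

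The comparison of 60-day with 4-day tumours set longer against shorter treatment. None of the 10 was called and 0% of all genes were called. None of the 10 had an unadjusted p under 0.05, against 1.87% of all genes, and the median difference was -0.19, against 0.017 over all genes. The differences ran from -0.54 ± 0.54 for Fn1 to 0.28 ± 0.31 for Cthrc1, and none lay more than 2 SE from 0.

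Resistant tumours were also compared with each treated group. Against 4-day tumours the median difference was 0.24, against 0.009 over all genes, with 9 of 10 positive and none called, where 0.00455% of all genes were called. Lox was the 1 gene with an unadjusted p under 0.05 (0.71 ± 0.29, adjusted p = 0.57), against 8.19% of all genes. The slides differed: on slide 1 the median was -0.11, with 7 of 10 negative, and on slide 2 it was 0.65, with 1 negative. Leaving out 1 array moved the median between 0.10 (without resistant replicate 2) and 0.62 (without resistant replicate 3), and 4 of the 10 were negative without resistant replicate 1 or 4-day replicate 4. With median centring 3 of the 10 were negative, and 0 with scaling between arrays. In the deposited table, which lacks some values, 2 were negative, with Tnc at -2.02 where the main model gave 1.17. Against 60-day tumours the median difference was 0.38, against -0.003, with 10 of 10 positive. None was called, and 0% of all genes were called. Lox (0.82 ± 0.29) and Thbs2 (1.00 ± 0.41) had an unadjusted p under 0.05, 2 of 10 against 5.67% of all genes, each with an adjusted p of 0.867. Lox was also the 1 gene whose resistant tumours all lay above the 60-day tumours, which held for 1.11% of all genes. With median centring of the arrays, 2 of the 10 turned negative in the comparison with 60-day tumours, and 1 did with Cy5 signals alone or in the deposited table. On slide 1 the median was 0.12, with 3 of 10 negative, and on slide 2 it was 0.74, with 0 negative. Leaving out 1 array moved the median between 0.22 (without resistant replicate 2) and 0.64 (without resistant replicate 3), and 2 of the 10 were negative without resistant replicate 1.

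The resistant group was split by slide and title code. Replicates 1 and 2, on slide 2, both lay above replicates 3 and 4, on slide 1, for 9 of the 10 genes, and the exception was Tagln. This held for 28.6% of all genes with a value on the 4 arrays. The same count was 6 of 10 in untreated tumours (26.9% of all genes), 2 in 4-day tumours (21%) and 5 in 60-day tumours (29.8%). The median gap between the slide means was 1.05, and it reached 2.94 for Tnc. The corresponding median gap was 0.57 in untreated tumours, 0.31 in 4-day tumours and 0.33 in 60-day tumours. Over all genes the median gap in resistant tumours was -0.01. Within slides, the median difference of resistant from untreated tumours was -0.66 on slide 1, negative for 10 of 10 genes, and -0.36 on slide 2, negative for 6 of 10. Tnc had -1.49 on slide 1 and 0.84 on slide 2, Lox -0.55 and 0.93, and Thbs2 -1.27 and 0.87. Cthrc1, Postn, Fap, Tagln, Fn1 and Sparc had negative differences on both slides. Without resistant replicate 1 all 10 genes had negative differences from untreated tumours, with a median of -0.79. Without resistant replicate 3 there were 5, with a median of -0.13.

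**Figure D3:**
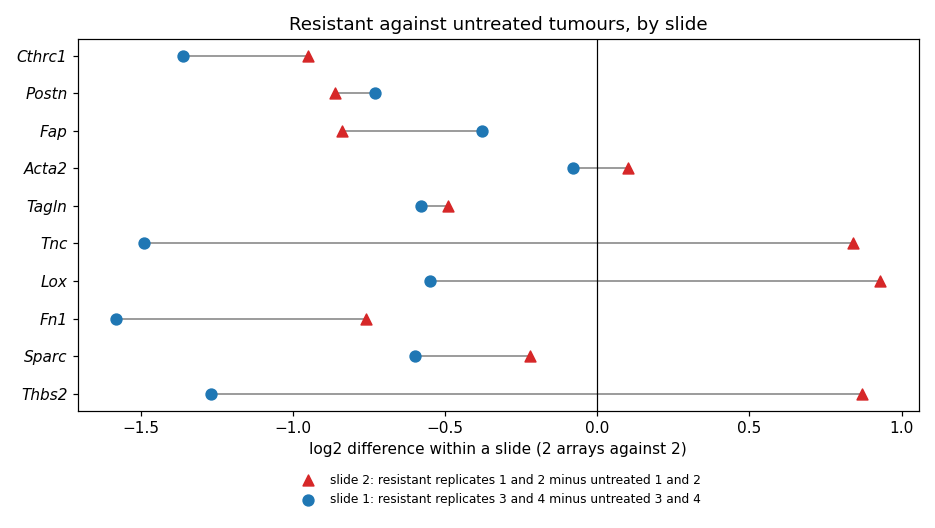
Log2 difference of resistant from untreated tumours within each slide (2 arrays against 2), with triangles for slide 2 and circles for slide 1. On slide 1 all 10 genes lie below 0, while on slide 2 Tnc (0.84), Lox (0.93) and Thbs2 (0.87) lie well above it.

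Markers of other cells were read in the same tumours. In resistant replicate 1 the mean log2 ratio of 10 keratinocyte markers was 1.38, against 4.8, 3.88 and 4.61 in resistant replicates 2 to 4, and that of 10 hair follicle markers was 1.82, against 4.10, 4.38 and 5.16. Endothelial markers, 10 of 10 measured, averaged 2.66 and 2.55 in resistant replicates 1 and 2 and 1.39 and 1.71 in replicates 3 and 4. Macrophage markers, 9 of 10 measured, averaged 2.40, 1.57, 1.24 and 1.08 in the 4 resistant tumours. The endothelial and macrophage means were thus higher in the same 2 tumours as the activated fibroblast genes. So were those of skeletal muscle markers (3.08 and 3.42 against 2.84 and 1.25) and resident fibroblast genes (3.00 and 3.08 against 2.49 and 2.80). Lists of other cancer-associated fibroblast genes, the TGF-beta pathway and matrix receptors were also higher there. Keratinocyte, hair follicle, melanocyte, adipocyte and smooth muscle lists were not higher in both. The part of these cells in the result was not tested.

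The 10 genes varied together across tumours. Of 45 pairs, 45 had a positive Pearson correlation over the 16 arrays, with a median of 0.58, from 0.11 for Tagln with Lox to 0.9 for Lox with Thbs2. The median Spearman correlation was 0.56. The arrays share the groups, slides and reference, so the correlations are a description, with no test. Pairs of other genes were not examined, so joint variation is not shown to be particular to these 10. After group means were removed, 43 of 45 remained positive, with a median of 0.42, from -0.24 for Tagln with Lox to 0.94 for Fn1 with Sparc. Without the 2 arrays whose mean lay farthest from the median (resistant replicate 1 and untreated replicate 2) the median was 0.62. Fn1 followed the mean of the 10 most closely, with a correlation of 0.96, and Tnc had 0.92, while Lox (0.63) and Tagln (0.65) followed it least.

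Each gene was centred on its mean over the 16 tumours and the 10 centred values were averaged per tumour. This mean was 0.82, 0.93, -0.07 and 0.73 in untreated tumours, -0.23, 0, -0.14 and -0.73 after 4 days, -0.15, -0.43, -0.61 and -0.56 after 60 days, and 0.94, 0.54, -0.77 and -0.28 in resistant tumours. Untreated replicate 3 was thus the 1 untreated tumour within the 4-day range, and it was the lowest of its group for 6 of the 10 genes. Means of other lists were lowest there too: 2.09 for resident fibroblast genes (2.74 to 3.1 in the other untreated tumours), 0.56 for smooth muscle and pericyte genes (1.24 to 1.34), 1.34 for endothelial markers (1.80 to 2.25) and 0.84 for skeletal muscle markers (2.82 to 3.61). The lists of other cancer-associated fibroblast genes and matrix receptors were lowest there as well. The TGF-beta list was the highest of its group there (0.29). Hair follicle (4.87), melanocyte, macrophage, keratinocyte and adipocyte means were not the lowest. The part of any list in the low values of this tumour was not tested. Its Cthrc1 level was not low: centred Cthrc1 exceeded the mean of the other 9 genes by 1.06 there, the largest excess of any tumour. In resistant replicate 1 the same excess was -1.13, the lowest of the 16.

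**Figure D4:**
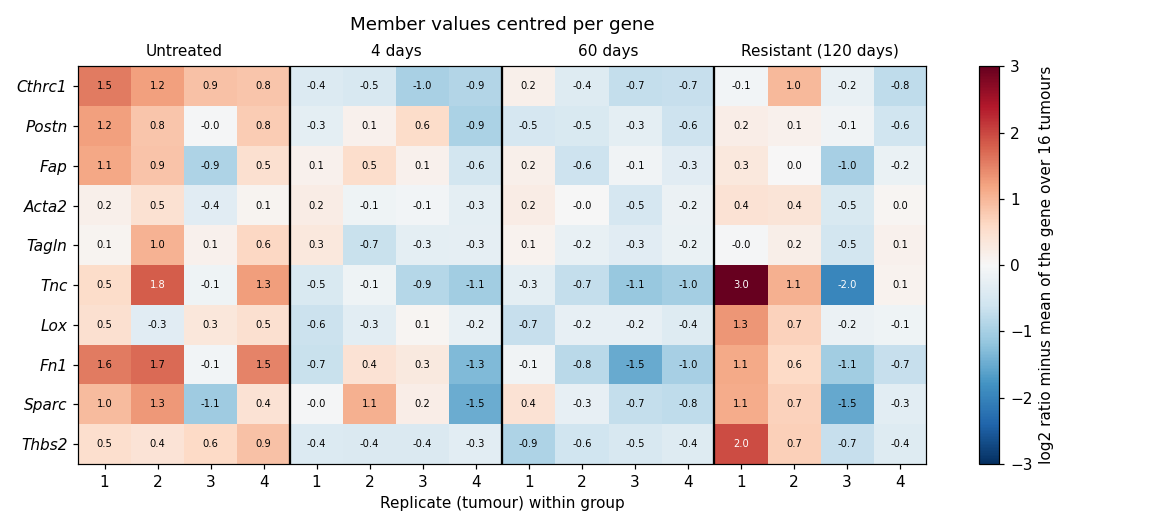
Log2 ratio of each gene (rows) in each tumour (columns, by group and replicate) minus the gene's mean over 16 tumours, red above and blue below the mean. Untreated replicates 1, 2 and 4 and resistant replicates 1 and 2 are mostly red, and in untreated replicate 3 most genes lie near or below their mean while Cthrc1 and Thbs2 lie above it.

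Among genes outside the list with a RefSeq symbol, the 8 whose log2 ratio correlated most with the mean of the 10 over 16 tumours were Raet1e (0.965), Tgfb1i1 (0.964), Ankrd39 (0.958), Arhgdia (0.954), Sh3kbp1 (0.951), Adra2a (0.95), Fkbp11 (0.949) and Galk1 (0.947). These 8 were picked as the highest of up to 15856 tested genes, so their high values follow from that choice. The 10 genes were not picked by this correlation, so the values of the 8 cannot be set against theirs. Tgfb1i1 encodes an adaptor of focal adhesions and Adra2a an adrenergic receptor. Tgfb1i1 had a difference of -1.04 ± 0.43 at 4 days and -1.08 ± 0.43 at 60 days, and Adra2a -1.31 ± 0.62 and -1.79 ± 0.62. None of the 8 passed the test in any comparison with untreated tumours, with adjusted p of 0.0994 (Fkbp11 at 60 days) or more. The correlations of the 8 were 0.92 to 0.95 without the 2 arrays farthest from the median, which does not remove the effect of the choice.

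Promoters of the 10 genes were searched for 4 motifs on both strands. The RefSeq windows held 300 bases, 250 before and 50 from the transcription start, on build GRCm38. Windows were at hand for 5 of the 10 genes, 7 windows in all: Postn and Tnc with a pair each, Acta2, Sparc and Thbs2. The CArG box of serum response factor, searched as CC, exactly 6 letters that are each A or T, and GG, was found in 0 of 7 and in 1.63% of 32851 windows of all genes. Shorter or interrupted runs, such as ccctatatgg and ccttgtttgg in the Acta2 window shown here, were not counted. The AP-1 motif TGANTCA was found in 0 of 7 and in 7.81% of windows. GGAATG, the core bound by TEAD factors, was found in the Acta2 window alone and in 14.7% of windows. CAGAC, a Smad-binding core, was found in 6 of 7 and in 49.6% of windows. The Tnc windows share 221 bases and 1 of these matches, so the 9 matches lie at 8 positions. A match is a stretch of letters and not a measured binding site. The windows of Acta2 (chr19:34255324-34255623), Tnc (the downstream window, chr4:64046887-64047186) and Thbs2 (chr17:14694213-14694512), all on the minus strand, are shown 5′ to 3′. Acta2 differed least, and Tnc and Thbs2 had the largest SD among resistant tumours, with Sparc close behind. Matches on either strand are in capitals.
Acta2: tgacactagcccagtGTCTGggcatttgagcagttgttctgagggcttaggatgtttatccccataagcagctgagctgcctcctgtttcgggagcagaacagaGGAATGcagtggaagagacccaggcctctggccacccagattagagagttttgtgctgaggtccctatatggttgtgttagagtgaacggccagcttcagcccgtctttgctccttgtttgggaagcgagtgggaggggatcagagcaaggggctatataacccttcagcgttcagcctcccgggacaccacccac
Tnc: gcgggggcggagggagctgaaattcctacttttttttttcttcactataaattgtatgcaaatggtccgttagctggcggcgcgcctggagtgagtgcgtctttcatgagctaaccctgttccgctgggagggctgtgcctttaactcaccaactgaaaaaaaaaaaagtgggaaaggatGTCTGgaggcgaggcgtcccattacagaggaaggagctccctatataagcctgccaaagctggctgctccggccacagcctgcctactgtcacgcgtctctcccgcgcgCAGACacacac
Thbs2: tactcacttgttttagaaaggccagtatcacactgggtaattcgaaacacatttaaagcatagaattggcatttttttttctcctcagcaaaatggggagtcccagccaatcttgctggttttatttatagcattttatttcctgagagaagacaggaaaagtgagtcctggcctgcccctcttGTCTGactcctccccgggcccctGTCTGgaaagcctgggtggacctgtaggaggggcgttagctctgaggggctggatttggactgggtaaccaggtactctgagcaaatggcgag
Acta2 holds CAGAC at -235 to -231 and GGAATG at -146 to -141 from the start. Tnc holds CAGAC at -70 to -66 and 40 to 44, and Thbs2 at -66 to -62 and -43 to -39.

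Other genes of cancer-associated fibroblasts, the TGF-beta pathway and resident fibroblasts were read from lists beside the 10. Of 23 other genes of cancer-associated fibroblasts none was called in the comparisons with untreated tumours. Over all genes 1.34% were called at 4 days, 0.819% at 60 days and 0.0182% in resistant tumours. At 4 days 19 were negative with a median of -0.51, at 60 days 17 with a median of -0.56, and in resistant tumours 13 with a median of -0.10. The fibrillar collagen genes Col1a1 and Col3a1, its brightest, had -0.62 ± 0.43 and -0.37 ± 0.38 at 4 days and -0.85 ± 0.43 and -0.72 ± 0.38 at 60 days. Of 19 TGF-beta pathway genes none was called, with 16 negative at 4 days and 15 at 60 days and a median of -0.30 at both times. The receptor gene Tgfbr2 and the target gene Ccn2 had -0.56 ± 0.30 and -0.29 ± 0.27 at 4 days, and -0.29 ± 0.30 and -0.41 ± 0.27 at 60 days. Genes of resident fibroblasts had positive medians in treated tumours: of 14, none called, 9 were positive at 4 days (median 0.33) and 10 at 60 days (median 0.39). In resistant tumours 8 of the 14 were negative, with a median of -0.22. The 60-day mean of the list was 0.51 on slide 1, which holds untreated replicate 3, and -0.03 on slide 2. The small proteoglycan gene Dcn had 0.51 ± 0.43 and 0.31 ± 0.43, and Gsn, an actin-severing protein, 0.81 ± 0.35 and 0.91 ± 0.35. Their difference from the 10 genes was not tested.

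Receptors for the matrix proteins and genes of smooth muscle and pericytes completed the comparison, beside 1.34% of all genes called at 4 days and 0.819% at 60 days. Of 12 receptor genes, 10 were negative at 4 days (median -0.33) and 10 at 60 days (median -0.36). Itga8, an integrin chain that binds fibronectin and tenascin-C and is made by contractile cells, fell at 4 days (-1.60 ± 0.33, adjusted p = 0.0362), the 1 call on this list. Its brightest members Itgb5 and Cd47 had -0.06 ± 0.18 and -0.26 ± 0.22 at 4 days. Of 16 smooth muscle and pericyte genes, 5 were negative at 4 days (median 0.21) and 8 at 60 days (median 0.03). Synpo2, an actin-bundling protein of muscle, rose at 4 days (0.93 ± 0.21, adjusted p = 0.0459) and at 60 days (1.11 ± 0.21, adjusted p = 0.0327), the 1 call at either time. Myl9, a myosin light chain of contractile cells, had -0.97 ± 0.34 and -1.27 ± 0.34 (adjusted p = 0.174 and 0.0841), and Mcam, an adhesion molecule of pericytes and melanoma cells, -0.50 ± 0.19 and -0.66 ± 0.19.

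Markers of 7 other cell types were read in all groups, and Mitf and Pparg, each at 4 days, were the 2 that passed against untreated tumours. Of all genes, 1.34% passed at 4 days, 0.819% at 60 days and 0.0182% in resistant tumours. Hair follicle markers averaged 1.88 to 5.12 in untreated tumours, 4.8 to 5.96 after 4 days, 5.27 to 5.65 after 60 days and 1.82 to 5.16 in resistant tumours, and all 10 were above background on every array. Their median difference was 1.71 at 4 days and 1.81 at 60 days, positive for 10 of 10 and called for none. Melanocyte markers averaged 1.56 to 1.93 in untreated tumours, 1.79 to 3.33 after 4 days, 2.31 to 3.1 after 60 days and 1.34 to 2.95 in resistant tumours. The lineage factor gene Mitf rose at 4 days (0.88 ± 0.20, adjusted p = 0.0459), and the adipocyte factor gene Pparg also rose then (1.31 ± 0.30, adjusted p = 0.0459). Macrophage markers averaged 1.46 to 2.12, 0.61 to 1.89, 0.77 to 1.42 and 1.08 to 2.40 in the 4 groups in the same order, with a median difference of -0.49 at 4 days and -0.58 at 60 days. Keratinocyte markers had a median difference of 0.43 and 0.54, endothelial markers 0.08 and 0.11, adipocyte markers 0.61 and 0.28 and skeletal muscle markers 0.13 and -0.42. The part of these cells in the lower values of the activated fibroblast genes was not tested.

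**Figure D5:**
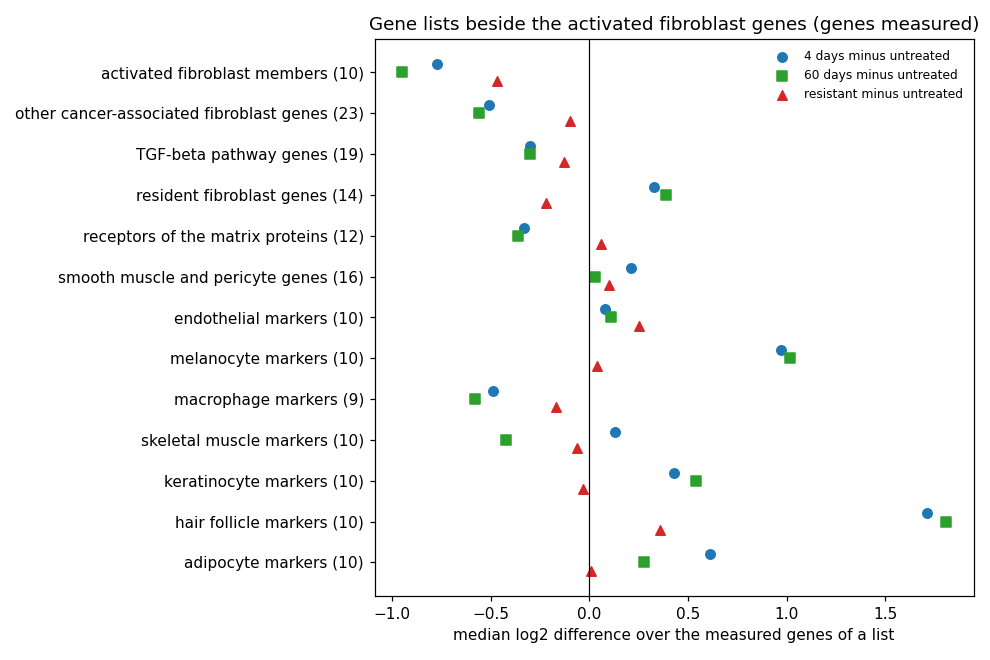
Median log2 difference from untreated tumours over the measured genes of each list (number in brackets) at 4 days, at 60 days and in resistant tumours. The activated fibroblast genes have the lowest medians at 4 days (-0.77), at 60 days (-0.95) and in resistant tumours (-0.47), and hair follicle markers the highest at 4 and 60 days. The genes and lists were chosen with earlier results of these data known, so their order is a description.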

How the data were processed

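RNA from 16 biopsies was hybridised to 2-colour Agilent arrays. Per the file headers, the scanner files hold spot intensity values from Agilent Feature Extraction 10.7.3.1, their log10 ratio of Cy5 over Cy3, and other columns with flags per spot. The deposited value table holds log2 ratios (slope of 0.992 to 0.993 against the scanner ratios set to base 2), lacks 21.6% to 40.2% of values per array, and was an alternative. Its array medians lay between -0.194 and -0.0638.

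Mean spot intensity was corrected with normexp (offset 50) and normalized within arrays by loess in limma 3.58.1 (R 4.3.3). Control spots had no weight, and 0.55% of values, marked as outliers by Feature Extraction, were set missing. Spots were averaged to 55681 probes, of which 30486 were above background in Cy5 on at least 4 arrays. Symbols were updated through RefSeq accessions (19887 kept probes matched), and the brightest probe per gene gave 21985 genes and transcripts, 15856 with a RefSeq symbol.

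All 4 groups entered 1 limma model, and p-values were adjusted by Benjamini-Hochberg over all genes in each of 6 comparisons, with a threshold of 0.05. Errors are standard errors from that model unless called SD. The number of arrays limits the precision. The script was tested on simulated data.

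The 10 genes, the 12 lists (155 genes), the motifs and the naming rule were chosen with earlier results of these data known. From each list the text names genes past the threshold and the 2 brightest. The lists were other cancer-associated fibroblast genes, TGF-beta pathway, resident fibroblasts, matrix receptors, smooth muscle and pericytes, and markers of endothelium, melanocytes, macrophages, skeletal muscle, keratinocytes, hair follicle and adipocytes. Alternatives changed the background correction, normalization, filter, probe rule, model, slide block and arrays left out. Replicates were numbered in accession order and pair no samples.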

Additional observations from a re-analysis of the deposited data

Results flagged for a closer look

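Each gene was examined in each group for a tumour far from the other 3, by Dixon's test. Of 40 such sets, 1 held such a tumour, and chance gives about 1 in 20. Fn1 in untreated replicate 3 had a log2 ratio of -1.41, while the other 3 untreated tumours had 0.15 to 0.35, a gap of 0.887 of the whole range. The same tumour was the lowest of its group for 6 of the 10 genes, and also for the means of the resident fibroblast (2.09), smooth muscle and pericyte (0.56), endothelial (1.34) and skeletal muscle (0.84) lists. It was the highest of its group for the TGF-beta list (0.29), and not the lowest for the hair follicle, melanocyte, macrophage, keratinocyte and adipocyte lists.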

How the results depend on the processing

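No paired analysis was possible because the labels give the groups no shared replicate numbers. Cthrc1 was called at 4 and at 60 days under each setting that kept all 16 arrays in the model or used only the pair of groups. The number of the 10 genes called at 60 days was 3 with the slide as a block (Cthrc1, Postn and Fn1), where 618 of all genes were called. In a model of the 2 groups alone it was 5 (with Tnc and Thbs2 as well), where 1258 of all genes were called. At 4 days it was 2 in that model, where 29 of all genes were called. The main model called 180 of 21985 genes at 60 days and 295 at 4 days. With 1 array left out the number of the 10 lay between 0 and 2 at 4 days and between 0 and 4 at 60 days. Both maxima came without resistant replicate 1, where 702 genes were called at 4 days and 1138 at 60 days. In every such fit of the other comparisons none of the 10 was called. At 4 days without 4-day replicate 4 Sparc was at 0. The deposited table gave Tnc no value against untreated tumours, and the 9 genes with a value were negative. Under every other setting all 10 differences were negative at 4 and 60 days. No called value changed sign, and the median difference stayed between -0.98 and -0.63 at 4 days, -1.21 and -0.88 at 60 days, and -0.79 and -0.13 in resistant tumours with 1 array left out.

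The count over all genes also moved. At 4 days it was 295, and it was 130 with processed signals, 12 with median centring, 196 with scaling between arrays, 645 with the slide block, 29 in a model of the 2 groups and 90 in the deposited table. At 60 days it was 180, and it was 77 with processed signals, 12 with median centring, 618 with the slide block, 1258 in a model of the 2 groups and 68 in the deposited table. For resistant against untreated tumours it was 4, and it was 1 with median centring, 10 with scaling, 12 with Cy5 alone, 14 with the slide block and 1 in a model of the 2 groups. For resistant against 4-day tumours it was 1, and it was 2 with scaling, 6 with Cy5 alone, 3 with probes above background on all arrays, 8 with the slide block, 2 with the mean of all probes, 0 in a model of the 2 groups and 5 in the deposited table. For resistant against 60-day tumours it was 0 and 1 in the deposited table, and for 60-day against 4-day tumours 0 and 1 with the slide block. With 1 array left out these counts ran from 45 to 702 at 4 days, 22 to 1138 at 60 days, 2 to 176 for resistant against untreated, 1 to 5 for resistant against 4-day, and 0 to 1 for the remaining comparisons. The cause was not tested.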
